A study of Mus musculus with 8 samples.

Results

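Cytoplasmic ribosomal protein genes encode the protein part of the cytoplasmic ribosome and were taken here as all gene symbols that start with Rpl or Rps followed by a digit or a p, together with Rpsa. Symbols starting with Rps6k, which are 10 kinases named after ribosomal protein S6, were left out, and 0 symbols ended in -ps. This gave 85 of the 20308 symbols in the count table. Of these, 77 were core subunits, with 46 genes of the large subunit and 31 of the small subunit, 6 were paralogs (Rpl3l, Rpl10l, Rpl22l1, Rpl36al, Rpl39l and Rps27l), and 2 were not subunits of the mature ribosome (Rpl7l1 and Rps19bp1).

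The genes were measured by RNA-seq in CD11b+ cells from the right brain hemisphere of 4 control and 4 CSF1 OE mice, with 1 library per mouse. Magnetic beads against CD11b, an integrin chain found on microglia and the rest of the myeloid lineage, were used to isolate the cells. All mice were F1 animals of C57Bl/6 and CD1 aged 14 or 15 days, and in CSF1 OE mice a TRE transgene for secreted colony stimulating factor 1 was switched on by tTA in some of the GFAP+ cells. The alleles carried by the control mice are not given in the sources used here. Expression of the transgene was thus directed to GFAP+ cells and not to the isolated cells, where Csf1 RNA overlapped between genotypes at 139 to 364 CPM (the counts of a gene scaled by the size of its library) in control mice and 167 to 400 CPM in CSF1 OE mice.

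A ribosome holds 1 copy of nearly every ribosomal protein, and cells make these proteins in matched amounts in nearly all tissues. In mammals the mRNAs of ribosomal proteins begin with a terminal oligopyrimidine (TOP) tract, a C followed by a run of pyrimidines, through which the mTOR pathway controls their translation. CSF1 is a growth factor that helps to keep microglia alive through its receptor CSF1R, which also has another ligand. Growth factors are known to raise protein synthesis in macrophages.

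The promoter sequences below allow the starts to be compared for 2 much studied genes (Rps6 and Rpl13a), for 2 of the genes with the largest differences between genotypes (Rpl39 and Rps26) and for 3 of those with the smallest (Rpl18, Rps15 and Rpl24). Each runs from 40 bases before to 20 bases after the annotated start, 5′ to 3′ on the strand of the gene, and is from RefSeq on GRCm38.p6. Capitals mark the longest run of C and T that begins with C, or the first such run where another is equally long.
Rps6, chr4:86857348-86857407, minus strand: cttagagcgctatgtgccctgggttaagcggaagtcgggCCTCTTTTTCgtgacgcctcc
Rpl13a, chr7:45128726-45128785, minus strand: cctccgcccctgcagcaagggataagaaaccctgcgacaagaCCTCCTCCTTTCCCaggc
Rpl39, chrX:37085203-37085262, minus strand: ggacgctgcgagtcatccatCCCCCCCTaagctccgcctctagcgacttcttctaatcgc
Rps26, chr10:128626487-128626546, minus strand: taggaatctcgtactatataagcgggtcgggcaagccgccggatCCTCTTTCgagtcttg
Rpl18, chr7:45718031-45718090, plus strand: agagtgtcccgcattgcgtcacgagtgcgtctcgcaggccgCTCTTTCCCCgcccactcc
Rps15, chr10:80292391-80292450, plus strand: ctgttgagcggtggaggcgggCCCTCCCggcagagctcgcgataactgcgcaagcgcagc
Rpl24, chr16:55966235-55966294, plus strand: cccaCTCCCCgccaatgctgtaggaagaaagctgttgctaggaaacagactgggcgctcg
The marked run of Rps6 crossed the annotated start. Those of Rpl13a, Rps26 and Rpl18 began after it, at positions 3, 5 and 2 where the start is position 1. The marked runs of Rpl39, Rps15 and Rpl24 lay upstream of the start. Rpl39 had an equally long run just after the start, and those of Rps15 and Rpl24 were shorter than 8 bases.

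A promoter entry was found for 57 of the 77 core genes. A C-led pyrimidine run of at least 8 bases on the strand of the gene, within 50 bases of the start on either side, was present in 84.2% of these 57 genes and in 32.0% of all 27025 genes with an entry. The motif CCGGAAG, searched on both strands of the 300 bases around the start, was present in 42.1% of core genes and in 9.93% of all genes. The core genes with a fold change, which Rps27 lacked, were then divided by these features. The median log2 fold change was 0.50 in the 47 genes with the pyrimidine run and 0.50 in the 9 without it, and it was 0.50 in the 24 genes with CCGGAAG and 0.50 in the 32 without it.

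All 81 ribosomal protein genes that passed the filter on low counts had higher fitted RNA levels in CSF1 OE mice than in control mice. Over the alternative fits, Rps19bp1 was lower when CSF1 OE mouse 1931 was left out, at -0.039 on the log2 scale, and Rpl3l, which was below the filter, was lower in each of the 8 fits that kept it. The log2 fold change of the 81 tested genes ran from 0.12 to 0.68 with a median of 0.49, whereas the median of all 13407 genes tested was -0.03 and 44.8% of these were above 0. Of the 81 genes, 76 did not overlap between genotypes, meaning that the lowest CSF1 OE mouse was above the highest control mouse, compared with 6.84% of all genes tested. At an adjusted p under 0.05 and a log2 fold change above 0.52, the fold limit of the study, 19 of the 81 genes rose (edgeR's quasi-likelihood test with Benjamini-Hochberg adjustment over all genes), compared with 0.388% of all genes, and 0 fell, compared with 0.0522% of all genes. At an adjusted p under 0.05 and any fold, 26 genes rose, compared with 0.448% of all genes, and 78 had an unadjusted p under 0.05, compared with 10.1% of all genes.

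The number of genes called rested on where the threshold lay, since the adjusted p of the members were close together. The lowest was 0.0322, 26 genes were under 0.05, 29 lay between 0.05 and 0.06, 19 between 0.06 and 0.1, and 7 were at 0.1 or above (edgeR). The number called at both limits was 0 when control mouse 1872 or 1874 or CSF1 OE mouse 1931, 1932 or 1936 was left out, 1 without control mouse 1934, 35 without control mouse 1827 and 25 without CSF1 OE mouse 2019. In each of these fits 78 members had an unadjusted p under 0.05. Over all genes tested, the number called higher was 2 to 13 in the fits with 0 members called. It was 8 without control mouse 1934, 136 without control mouse 1827 and 59 without CSF1 OE mouse 2019. For each of the 19 called genes the highest adjusted p over the alternative fits was between 0.171 and 0.186 (edgeR), so that each single call given below was lost when some mice were left out. DESeq2 called 31 members at the same thresholds, where it called 269 genes higher of the 16835 with a fold change. Not all of these 16835 genes had an adjusted p.

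**Figure D1:**
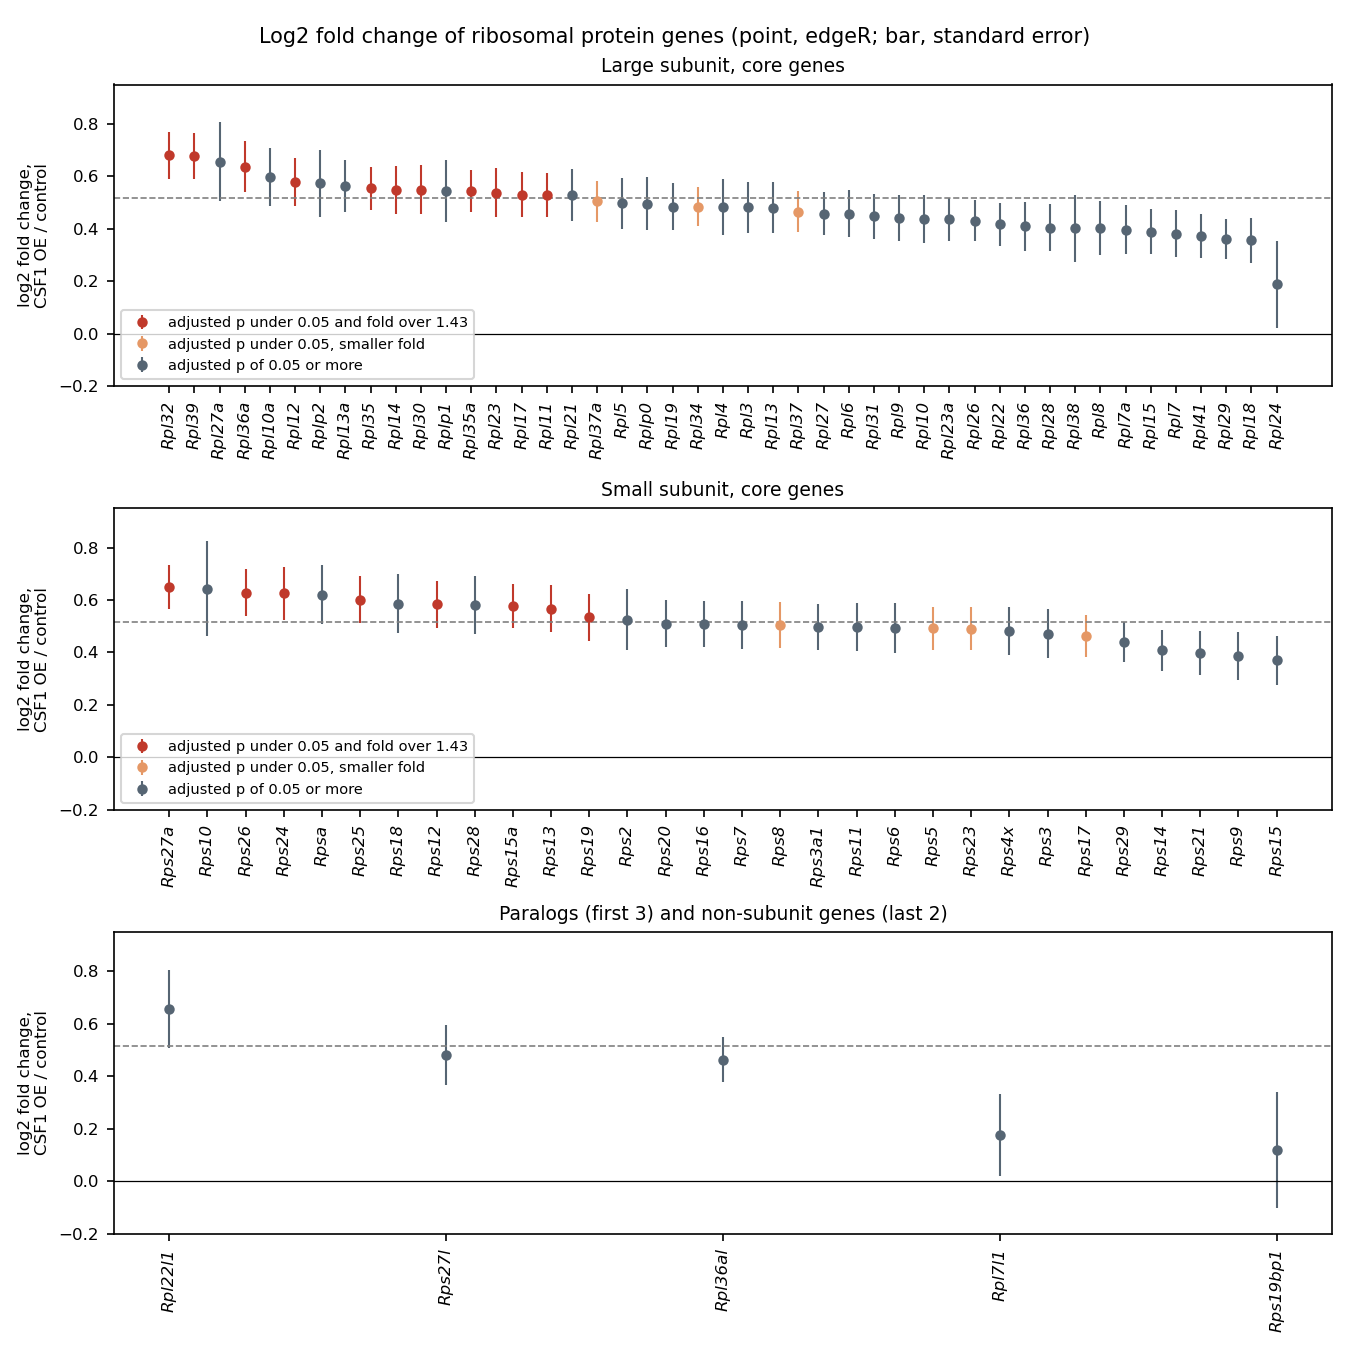
Log2 fold change (CSF1 OE over control) of 80 of the 81 tested genes, as points with standard errors, for the large subunit, the small subunit and the paralogs and non-subunit genes. The dashed line is a log2 fold change of 0.52, the limit used for calls, and all points lie above 0, with Rpl32 and Rpl39 highest and Rps19bp1 lowest.

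Summed over all members, the control mice had 28207 CPM (1827), 25332 CPM (1872), 25689 CPM (1874) and 25474 CPM (1934). The CSF1 OE mice had 37294 CPM (1931), 37993 CPM (1932), 38700 CPM (1936) and 33812 CPM (2019). The groups did not overlap, control mouse 1827 was the highest of its group and CSF1 OE mouse 2019 the lowest of its own. The ratio of the group means was 1.41. As a share of the total counts, before any scaling between libraries, the members took 2.48% to 2.85% in control mice and 3.17% to 3.95% in CSF1 OE mice.

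The 2 subunits differed between genotypes by nearly the same factor. The 46 large subunit genes had a median log2 fold change of 0.48, with 11 genes called, and their sum was 15270 ± 799 CPM in control mice, against 21416 ± 1260 CPM in CSF1 OE mice (SD, n = 4 each), a ratio of 1.40. The 30 tested small subunit genes had a median of 0.51, with 8 genes called, and their sum was 10722 ± 552 CPM in control mice, against 15294 ± 927 CPM in CSF1 OE mice (SD, n = 4 each), a ratio of 1.426. The sum of the large subunit divided by that of the small subunit was 1.410 to 1.435 in control mice and 1.391 to 1.405 in CSF1 OE mice. These ratios did not overlap, with the lowest control mouse (1934) at 1.410 and the highest CSF1 OE mouse (1931) at 1.405, and the means of 1.424 and 1.400 were less than 2% apart.

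**Figure D2:**
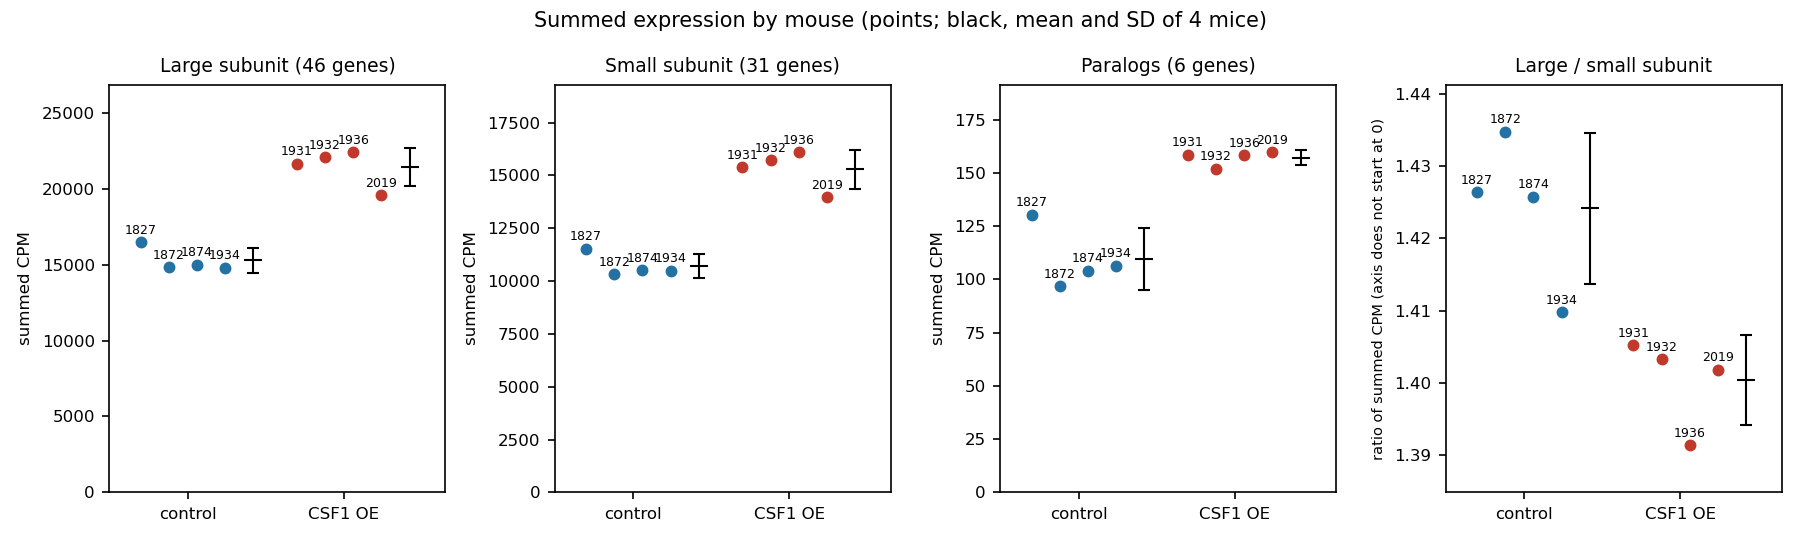
Summed CPM of the large subunit, the small subunit and the paralogs, and the ratio of the large to the small subunit, with 1 point per mouse and the mean and SD of each group in black. The 4 CSF1 OE mice lie above the 4 control mice in the first 3 panels and below them in the ratio, whose axis does not start at 0.

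Among large subunit genes the largest log2 fold changes were those of Rpl32, Rpl39, Rpl27a and Rpl36a. Rpl32 (chr6:115805505-115808747, minus strand, GRCm38) was at 321, 278, 295 and 317 CPM in control mice and at 496, 494, 507 and 442 CPM in CSF1 OE mice. The lowest CSF1 OE mouse was well above the highest control mouse, and Rpl32 rose by 0.68 ± 0.09 on the log2 scale (SE, edgeR adjusted p = 0.0322). Rpl39, one of the smallest ribosomal proteins and part of the wall of the exit tunnel through which the new protein leaves, was at 190, 171, 176 and 199 CPM in control mice and 272, 316, 307 and 281 CPM in CSF1 OE mice. It rose by 0.68 ± 0.09 (edgeR adjusted p = 0.0322), again without overlap. Rpl36a, the parent of the paralog Rpl36al, rose from 103 ± 7.88 to 161 ± 16.9 CPM (SD, n = 4 each), a log2 fold change of 0.64 (edgeR adjusted p = 0.0431). Rpl27a had a similar log2 fold change of 0.66 but was not called, with an edgeR adjusted p of 0.0876. Its control mouse 1827, at 312 CPM, lay near the lowest CSF1 OE mouse, 2019, at 315 CPM, while the other 3 control mice were at 211 to 232 CPM.

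The smallest log2 fold changes of the large subunit were those of Rpl24, Rpl18 and Rpl29. Rpl18 was at 281 ± 19 CPM in control mice, against 359 ± 22.5 CPM in CSF1 OE mice (SD, n = 4 each), and Rpl29 at 212 ± 9.89 and 272 ± 15 CPM. Both had a log2 fold change of 0.36 and did not overlap between genotypes, but missed the threshold (edgeR adjusted p = 0.0955 and 0.0694). Rpl24, a protein at the bridge between the subunits, stood apart. Its control mean of 51.6 CPM was the lowest of the tested core genes, whose median was 308 CPM. Whether its reads were fully counted was not tested. Rpl24 was at 50.8, 46.5, 63.0 and 45.9 CPM in control mice and at 73.3, 43.7, 55.1 and 62.8 CPM in CSF1 OE mice. The groups overlapped, the lowest value of all was that of CSF1 OE mouse 1932, and the log2 fold change was 0.19 ± 0.17 (SE, edgeR adjusted p = 0.599).

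Among small subunit genes the largest log2 fold changes were those of Rps27a, Rps10, Rps26 and Rps24. Rps27a (chr11:29545846-29548109, minus strand, GRCm38), which encodes ubiquitin fused to the ribosomal protein, was at 378, 327, 356 and 352 CPM in control mice and at 558, 557, 578 and 523 CPM in CSF1 OE mice. It rose by 0.65 ± 0.08 (SE, edgeR adjusted p = 0.0322), and each group lay within a narrow range. Rps26, which lies at the exit of the mRNA channel, rose from 144 ± 7.33 to 222 ± 21.2 CPM and Rps24 from 339 ± 22.8 to 523 ± 50.2 CPM (SD, n = 4 each), both with a log2 fold change of 0.63 (edgeR adjusted p = 0.0391 and 0.0437). RPS26 and RPS24 are among the proteins mutated in Diamond-Blackfan anaemia, an inherited failure of red cell production.

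Rps10 had a log2 fold change of 0.64 ± 0.18 but its groups overlapped (edgeR adjusted p = 0.142). Control mouse 1827 was at 275 CPM, above CSF1 OE mouse 2019 at 254 CPM, whereas the other control mice were at 177, 179 and 171 CPM and the other CSF1 OE mice at 339, 371 and 290 CPM. Without mouse 1827 the log2 fold change was 0.84 (edgeR adjusted p = 0.0428), the highest of 18 fits that include the main one. The lowest was 0.51. Only 2 of the 18 fits had an adjusted p under 0.05 for Rps10, that without mouse 1827 and DESeq2 (adjusted p = 0.0220). Rps15, Rps9 and Rps21 had the smallest log2 fold changes of the small subunit, at 0.37, 0.39 and 0.40, with edgeR adjusted p of 0.106, 0.0899 and 0.0644. None of these 3 overlapped between genotypes: Rps15 was at 302 to 333 CPM in control mice, against 355 to 450 CPM in CSF1 OE mice, and Rps21 at 180 to 185 and 213 to 265 CPM. Of the 76 tested core genes only Rpl24, Rpl38 and Rps10 overlapped. Rpl38, which is known for a role in the translation of Hox mRNAs in the embryo, was at 90.2 to 117 CPM in control mice, against 106 to 147 CPM in CSF1 OE mice, and its log2 fold change was 0.40 ± 0.13 (edgeR adjusted p = 0.179).

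**Figure D3:**
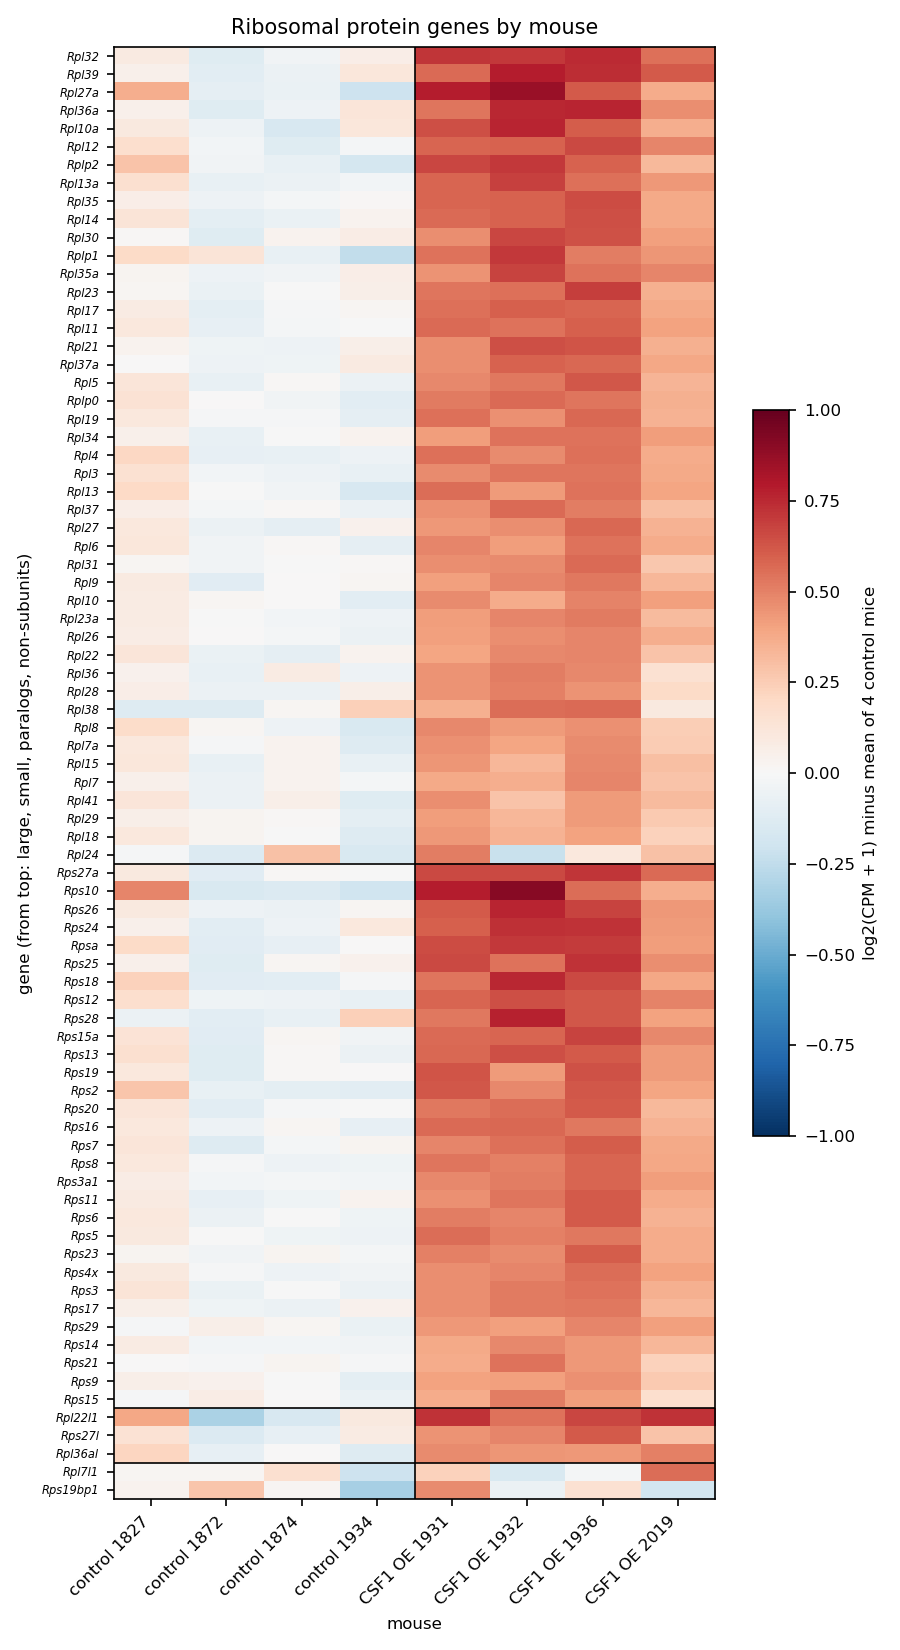
The same 80 tested genes by mouse, as log2(CPM + 1) minus the mean of the 4 control mice, in red where above it and in blue where below, with genes sorted by log2 fold change within class. The 4 CSF1 OE columns are red for nearly all core genes, with mouse 2019 palest, and Rpl24, Rpl7l1 and Rps19bp1 show no such pattern.

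The proteins of the stalk, which recruits elongation factors to the large subunit, had log2 fold changes within the range of the other large subunit genes. Rplp0 was at 877, 794, 774 and 737 CPM in control mice and 1138, 1177, 1151 and 1018 CPM in CSF1 OE mice, and its log2 fold change was 0.50. Rplp1 was at 439 ± 58.9 and 641 ± 51.0 CPM, and Rplp2 at 185 ± 27.3 and 275 ± 31.5 CPM (SD, n = 4 each), log2 fold changes of 0.54 and 0.57. None of the 3 overlapped between genotypes, and none passed the threshold (edgeR adjusted p = 0.0626, 0.0753 and 0.0761). Rplp0, like Rpl13a, is often used as a reference gene for quantitative PCR. Rpl13a was at 537 to 634 CPM in control mice, against 764 to 909 CPM in CSF1 OE mice, and its log2 fold change was 0.56 (edgeR adjusted p = 0.0527).

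Members with known roles beyond the ribosome had log2 fold changes within the range of the other subunits. Rpl5 and Rpl11 bind MDM2 with the 5S RNA when ribosome assembly is disturbed. Rpl11 rose from 308 ± 16.6 to 445 ± 25.5 CPM, which is a fitted log2 difference of 0.53 (edgeR adjusted p = 0.0431), and Rpl5 was at 585 ± 36.2 and 825 ± 64.9 CPM, which is a fitted log2 difference of 0.50 (adjusted p = 0.0558; SD, n = 4 each). Rps19, the gene most often mutated in Diamond-Blackfan anaemia, rose from 225 ± 14.4 to 325 ± 26.9 CPM, which is a fitted log2 difference of 0.53 (edgeR adjusted p = 0.0499). Rps6, the substrate of S6 kinase downstream of mTOR, was at 633 ± 33.1 and 892 ± 68.0 CPM, which is a fitted log2 difference of 0.49 (edgeR adjusted p = 0.0558). Rps3, which also acts in DNA repair, was at 558 ± 36.7 and 773 ± 44.4 CPM, which is a fitted log2 difference of 0.47 (edgeR adjusted p = 0.0558). Rpsa, also known as the laminin receptor, was at 561 to 694 CPM in control mice, against 815 to 994 CPM in CSF1 OE mice, and its log2 fold change was 0.62 (edgeR adjusted p = 0.0552). Its share of the summed core genes went from 2.34% to 2.55%, the largest gain of any core gene.

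The 6 paralogs fell into a group that was expressed and a group at or near the floor of detection. Rpl22l1, a paralog of Rpl22, was at 41.3, 24.9, 27.8 and 33.5 CPM in control mice and at 52.2, 46.1, 50.4 and 52.4 CPM in CSF1 OE mice, and its log2 fold change was 0.66 ± 0.15 (SE, edgeR adjusted p = 0.0851). Its parent Rpl22 was at 123 ± 8.58 and 164 ± 11 CPM (SD, n = 4 each), a log2 fold change of 0.42 (edgeR adjusted p = 0.0558). Rpl36al, a paralog of Rpl36a, was at 58.3 ± 6.43 and 80.3 ± 1.88 CPM, and Rps27l, a p53 target, at 18.1 ± 1.75 and 25.3 ± 2.44 CPM, log2 fold changes of 0.46 and 0.48 (edgeR adjusted p = 0.0558 and 0.0899). The groups did not overlap for any of these 3 paralogs, and the difference between a paralog and its parent was not tested.

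Rpl10l, Rpl39l and Rpl3l, which are known from testis (Rpl10l and Rpl39l) and from heart and skeletal muscle (Rpl3l), did not pass the filter on low counts. Rpl10l had 0 counts in all 8 libraries, where a count of 0 allows up to 0.194 to 0.249 CPM depending on the library, for counting error only. Rpl39l had 1 to 18 counts, and its highest value was in CSF1 OE mouse 2019 at 1.59 CPM. Rpl3l had 3 to 14 counts and was at 0.739 to 1.06 CPM in control mice, against 0.246 to 0.620 CPM in CSF1 OE mice, so that its groups lay apart in the opposite direction. At these counts the difference amounted to a few reads per library. In the 8 fits that kept Rpl3l its log2 fold change was -1.01 to -0.67 and did not pass the threshold, with -0.88 and an adjusted p of 0.324 in edgeR without a filter and -0.89 and an adjusted p of 0.334 in DESeq2. The parents Rpl10 and Rpl3 were at 716 ± 38.3 and 742 ± 55.3 CPM in control mice and had log2 fold changes of 0.44 and 0.48, and Rps4x, for which no paralog was in the table, had 0.48.

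Rps27 (chr3:90212522-90213651, minus strand, GRCm38), a core gene of the small subunit that all cells use, was listed at 0 in all 8 libraries, and nothing is said here of its expression. RSEM divides reads that fit several genes between them, and for 24 core genes the expected counts were not whole numbers (by more than 0.05) in more than 4 libraries. Among the genes named here this applied to Rps24, Rps9, Rpl27a, Rpl22, Rpl10, Rpl13a, Rpl5, Rpl7, Rplp0, Rplp2, Rps3a1, Rps28 and Rps4x, whose levels are uncertain because reads were divided between sequences. Counts that are not whole do not show reads that were lost, since Rps27 had them in 0 libraries. Rpl24, the tested core gene with the lowest control CPM, had them in 2 libraries.

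The 2 genes that carry a ribosomal protein symbol but are not subunits had the smallest log2 fold changes of the tested members. Rpl7l1, which acts in assembly of the large subunit, was at 58.1 to 75.2 CPM in control mice, against 60.2 to 99.0 CPM in CSF1 OE mice, and its log2 fold change was 0.18 ± 0.15 (edgeR adjusted p = 0.599). Rps19bp1, a protein that binds Rps19, was at 6.54 ± 1.27 and 7.10 ± 1.67 CPM (SD, n = 4 each), a log2 fold change of 0.12 ± 0.22 (edgeR adjusted p = 0.804). Both overlapped between genotypes. Rpl7, the parent symbol of Rpl7l1, had a log2 fold change of 0.38, with 601 to 651 CPM in control mice, against 766 to 881 CPM in CSF1 OE mice (edgeR adjusted p = 0.0883).

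The log2 fold changes of the core genes lay close together. Their SD over the 76 tested core genes was 0.089 and the median standard error of a gene was 0.090. This standard error includes differences between mice that many members shared. Control mouse 1827 was the highest of its group for 63 of 81 tested members, and CSF1 OE mouse 2019 the lowest for 72. The standard error therefore does not measure the spread to be expected between genes. Core genes were divided by their control CPM into 3 groups of 25, 25 and 26. The median log2 fold change was 0.51 in the least abundant, 0.51 in the middle and 0.48 in the most abundant, while 8, 10 and 1 genes were called. Across the 76 genes, which are not independent, Pearson's r of the log2 fold change was 0.05 with log2 control CPM, 0.08 with log2 transcript length, -0.07 with log2 coding length and -0.26 with GC content. The levels themselves nearly kept their order, with r = 0.994 and Spearman's rho = 0.992 between log2 CPM in control and in CSF1 OE mice. The share of a gene in the summed core CPM moved by no more than 0.1 percentage points for 65 of the 77 core genes, and the largest loss was that of Rps9, from 2.52% to 2.33%.

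**Figure D4:**
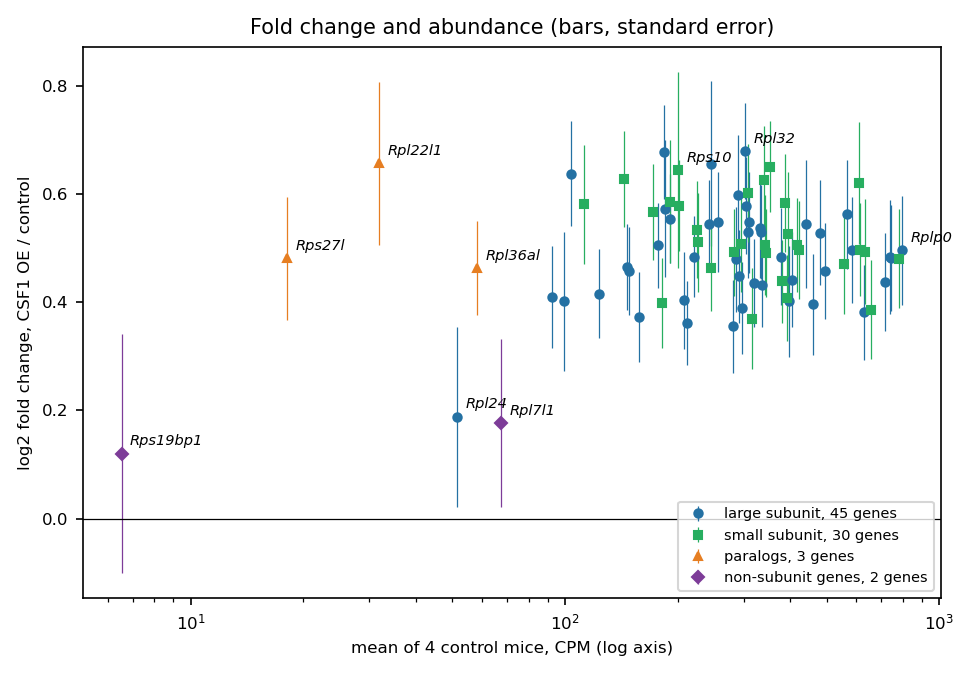
Log2 fold change with its standard error against the mean CPM of the 4 control mice (log axis) for 80 of the 81 tested genes. Core genes lie in a flat band around 0.50 across the range of abundance, with Rpl24 as the lowest core gene and the 2 non-subunit genes near it.

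Levels of different genes were compared per length, in control mice. Because the transcript used for each gene was not known, CPM were divided both by transcript length and by coding length from the GENCODE annotation, and genes were ordered by the mean of both ranks. Rps29, a small zinc-binding protein, ranked first by both, at 976 CPM per kb of transcript and 2226 CPM per kb of coding sequence. Next were Rplp1, at 880 and 1273 CPM per kb, and Rpl10, at 896 and 1110 CPM per kb. At the other end, above Rps27, were Rpl24, at 76.1 and 109 CPM per kb, and Rpl36, at 241 and 290 CPM per kb. By coding length Rpl24 lay well below all other listed genes. By transcript length only Rps20, whose annotated transcript of 3706 bases is unusually long, was lower, at 61.2 CPM per kb. The 77 core genes lay on 19 chromosomes, and the 14 on chromosome 7 had a median log2 fold change of 0.50.

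Other genes of the translation machinery were also higher in CSF1 OE mice, with smaller medians than the core subunits. Among ribosomal proteins with other symbols, Fau and Gnb2l1 (the earlier symbol of Rack1) had log2 fold changes of 0.35 and 0.51 and did not pass the threshold (edgeR adjusted p = 0.143 and 0.0642). Of 21 other TOP and translation genes 21 were higher, at a median of 0.38. Of these, Eef1b2, a subunit of the exchange factor for elongation factor 1, rose from 232 ± 16.9 to 333 ± 19.8 CPM (SD, n = 4 each; log2 fold change 0.52, edgeR adjusted p = 0.0492). Npm1, a nucleolar chaperone that accompanies ribosomal proteins, rose from 315 ± 26.8 to 471 ± 24.1 CPM (log2 fold change 0.58, edgeR adjusted p = 0.0431). Eef1a1, the elongation factor that brings tRNA to the ribosome, was at 5345 ± 241 and 7479 ± 290 CPM (log2 fold change 0.48, edgeR adjusted p = 0.108).

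Of 44 ribosome biogenesis genes 41 were higher, at a median of 0.27 in log2 fold change, with 0 called (edgeR). Those higher with an unadjusted p under 0.05 (edgeR) numbered 20, a share of 45.5% against 10.1% of all genes tested. DESeq2 called 3 of the 44 and limma 0. Nhp2, a protein of the particles that modify ribosomal RNA, had 0.65 (edgeR adjusted p = 0.102). Of 14 regulators of TOP mRNAs 10 were higher, with a median of 0.08 and 0 called (edgeR; 2 higher with an unadjusted p under 0.05, a share of 14.3% against 10.1% of all genes tested, and 0 called by DESeq2 or limma). Myc and Mtor control ribosome production and TOP translation. In control and CSF1 OE mice Myc was at 41.2 ± 14.7 and 41.3 ± 25.3 CPM, and Mtor at 81.1 ± 4.06 and 78.6 ± 7.71 CPM (SD). Their log2 fold changes were 0.001 ± 0.41 and -0.05 ± 0.09 (SE, edgeR adjusted p = 0.998 and 0.807), so that the error for Myc was large. Of 76 mitochondrial ribosomal protein genes 57 were higher, at a median of 0.15, with 0 called (edgeR; 10 higher with an unadjusted p under 0.05, a share of 13.2% against 10.1% of all genes tested, 2 called by DESeq2 and 0 by limma). The 59 respiratory chain genes were all higher, with a median of 0.24 and 0 called by edgeR, DESeq2 or limma. Of these, 21 had an unadjusted p under 0.05 (edgeR), a share of 35.6% against 10.1% of all genes tested. The 2144 genes outside the family with more than 100 CPM had a median log2 fold change of 0.07, and 63.1% were above 0.

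**Figure D5:**
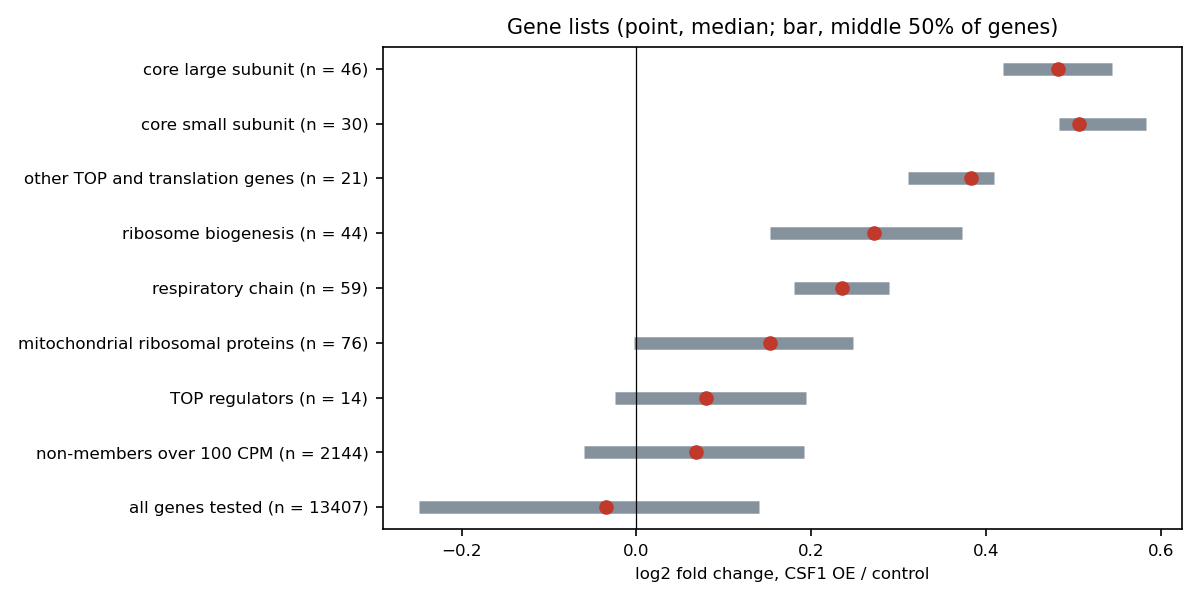
Median log2 fold change (point) and the middle 50% of genes (bar) in each list, with the number of genes tested. The 2 subunits lie highest, followed by the other TOP and translation genes, and the median of all genes tested is just below 0.

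The libraries held 12053259 to 15475465 counts and no marker list was fully separated between genotypes. Markers of microglia were all detected, with 6 of 12 higher and 6 lower and a summed level of 22173 to 38613 CPM in control mice, against 29103 to 41984 CPM in CSF1 OE mice. In each marker list 0 genes had an adjusted p under 0.05 (edgeR). Of all 13407 genes tested, 7405 were lower in CSF1 OE mice. Markers of other cells were present. Those lower in CSF1 OE mice were 10 of 10 endothelial markers (897 to 1591 against 425 to 1066 CPM summed), 7 of 7 of border macrophages (1557 to 2477 against 1252 to 1871), 7 of 8 of oligodendrocytes (2969 to 6211 against 1622 to 5034), 5 of 5 tested of red cells (251 to 936 against 38.5 to 434) and 7 of 8 of neurons (91.3 to 359 against 45.5 to 214), as were 6 of 7 of mural cells (166 to 349 against 156 to 295), 5 of 6 of oligodendrocyte precursors (146 to 285 against 80.3 to 305), 5 of 8 of astrocytes (387 to 729 against 326 to 745) and 3 of 4 of monocytes (37.6 to 52.9 against 38.2 to 78.1). Of the neutrophil markers 5 of 6 were higher (45.8 to 104 against 15.9 to 227). Of the lymphocyte markers, Cd3e, Cd3g and Nkg7 were at 3 counts or fewer. Their part in the ribosomal protein result was not tested. In RNA from a mixed pellet, fewer cells of a type and less RNA per cell cannot be told apart.

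The result was also examined within ranges of animal numbers, since the labels give no batch. Among the mice numbered 1931 to 1936 (1 control and 3 CSF1 OE), 81 of 81 genes were higher and 80 did not overlap, with a median difference of 0.56 in log2 CPM, where 35.2% of all genes were higher without overlap. Among the other mice (3 control and 1 CSF1 OE), 80 of 81 were higher and 78 did not overlap, with a median difference of 0.36, where 32.3% of all genes were higher without overlap. Across all 13364 genes with an annotated length, the log2 fold change had r = -0.18 with log2 transcript length. With the trends on length and GC content removed from each library, the median log2 fold change of the members was 0.40 and that of all genes 0.03, and 81 of 81 members were higher, 75 of them with an unadjusted p under 0.05 and 0 with an adjusted p under 0.05 (edgeR; DESeq2 without this correction had 77).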

How the data were processed

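Bead-enriched CD11b+ cells of 4 control mice and of 4 CSF1 OE mice gave 1 RNA-seq library per mouse. The authors aligned paired-end reads with Bowtie 1.0.0 and made expected counts per gene symbol with RSEM 1.2.7 on mm10, according to the submitters' processing notes and the paper's methods, and the annotation used is not given in the sources used here. A second deposited table, a signal on the count scale, holds the expected counts divided by the authors' size factor of each mouse, and it was used only as an alternative input. Mice were assigned to groups by the genotype in their labels, and 0 columns were unmapped.

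Expected counts were rounded to whole numbers and fitted in R 4.3.3 with edgeR 4.0.16 (filterByExpr, TMM, glmQLFit and glmQLFTest) over 13407 genes, with Benjamini-Hochberg adjustment. Genes were called at an adjusted p under 0.05 and a fold above 1.43 or below 0.7, the fold limits used in the study. The study's EBSeq was not available here, and its reads were not used. CPM are scaled by TMM factors. The standard errors given with edgeR were derived from its test, as the absolute log2 fold change divided by the square root of the F statistic. In each library 15.2% to 19.3% of values were not whole. A limit of 3 counts came to 0.194 to 0.249 CPM, for counting error only, and the common BCV, edgeR's biological coefficient of variation, was 0.228. No library was a copy of another, since the chi-square per gene was 12.9 to 76.3 over 28 pairs. Each mouse is a separate animal, so that p-values measure the spread between mice.

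Alternatives were DESeq2 1.42.0, limma 3.58.1 on log2 of the deposited normalized values with a pseudocount of 1, upper-quartile factors, total counts, TMM without the members, no filter, at least 10 counts in every library, animal-number range as a covariate, removal of trends on length and GC content (splines, 4 degrees of freedom), leaving out each mouse, an adjusted p of 0.01 and glmTreat. Scripts were tested on simulated data. Lengths, GC content and positions came from GENCODE M21 (GRCm38), which held 99.6% of the symbols, and promoters from RefSeq (GRCm38.p6).

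Genes named are the 4 members of each subunit with the largest and the 3 with the smallest log2 fold change, the 3 highest and 3 lowest per length, paralogs and their parents, stalk proteins, non-subunits, members with other known roles or used as reference genes, members whose groups overlap and members on low counts. Members and lists were chosen with earlier results of these data known. Eef1b2, Npm1, Eef1a1, Nhp2, Myc and Mtor were named after their values were seen. A few genes are included in the counts and sums but are not reported singly here, and 1 of them is left out of the plots of single genes.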

Additional observations from a re-analysis of the deposited data

Results flagged for a closer look

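In a group of 4 mice, a mouse was singled out where its distance from the nearest other mouse was more than 0.83 of the range of the group (Dixon's test), which chance does in about 5% of groups. This held in 11 of 172 groups examined, which come from the same mice and are not independent. In 9 of them control mouse 1827 was the highest of the control mice. It was at 847 CPM for Rpl4 (the others at 694 to 711), 275 CPM for Rps10 (171 to 179), 433 CPM for Rps12 (366 to 373), 414 CPM for Rps14 (383 to 385), 473 CPM for Rps2 (364 to 372) and 645 CPM for Rps3a1 (603 to 607). The sums each include some of these genes, so they are not separate results, and showed the same mouse. Over all members it was at 28207 CPM (25332 to 25689). It was at 16462 CPM over the large subunit (14804 to 14990) and 11540 CPM over the small subunit (10333 to 10513). Control mouse 1934 was the highest for Rps28, at 132 CPM (104 to 107). CSF1 OE mouse 1932 was the lowest for the summed paralogs, at 152 CPM (158 to 160). Of these, Rps10 was the only gene whose groups overlapped.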

How the results depend on the processing

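The 81 members tested were higher in CSF1 OE mice under every alternative, except Rps19bp1, whose log2 fold change was -0.039 without CSF1 OE mouse 1931 and up to 0.23 with another mouse left out. The median log2 fold change of the members was 0.44 with total counts and 0.50 with TMM without the members, with the other alternatives on all mice between these 2 except for the removal of length and GC trends, and it was 0.47 to 0.54 with 1 mouse left out. With those trends removed the medians were 0.40 for the members, 0.39 for the large and 0.41 for the small subunit, the log2 ratio of the sums was 0.40, and 0 members were called or had an adjusted p under 0.05. How many members passed a threshold depended on the choice. Members called numbered 31 with DESeq2, 25 with TMM without the members, 25 with limma, 19 with animal-number range as a covariate, 17 with at least 10 counts in every library, 14 without a filter, 2 with upper-quartile factors, 0 with total counts, 0 at an adjusted p of 0.01, 0 with glmTreat and 0 to 35 with 1 mouse left out. Members with an adjusted p under 0.05 at any fold numbered 77 with DESeq2, 53 with TMM without the members, 54 with limma, 16 without a filter, 70 with animal-number range as a covariate, 2 with upper-quartile factors, 0 with total counts, 0 at the threshold of 0.01 and 0 to 39 with 1 mouse left out. With 0 called, 75 to 78 members had an unadjusted p under 0.05, except with glmTreat, which tests against the fold limit and gave 5. The causes were not tested. Over all genes, the number called higher was 52 with edgeR and 269 with DESeq2. It was 88 with TMM without the members, 87 with limma, 52 with at least 10 counts in every library and 39 without a filter. With upper-quartile factors it was 16, with total counts 7, with length and GC trends removed 17, and with 1 mouse left out 2 to 136. At an adjusted p of 0.01 and with glmTreat it was 2. With animal-number range as a covariate it was 302, and 971 genes were called lower, compared with 7 in the main fit. No paired analysis was possible because the animal numbers of the groups are all different.

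Expected counts limit what can be said of genes whose reads are shared, and nothing can be said of Rps27. The mice numbered 1931 to 1936 were 1 control and 3 CSF1 OE mice, so that number range and genotype are partly confounded. No batch is given. Genes at a few counts, such as Rpl3l and Rpl39l, were below what these depths can compare.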

Other observations

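Control mouse 1827 was the highest control mouse for 63 of the 81 tested members and CSF1 OE mouse 2019 the lowest CSF1 OE mouse for 72. The highest CSF1 OE mouse was 1936 for 43 members.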
